A study of Mus musculus with 8 samples.

Results

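The genes described here encode the proteins of the mitochondrial ribosome. They were chosen by name, as the genes on the array whose symbol is Mrpl or Mrps followed by a number, with 1 such gene not analysed here, which gave 75 of the 15401 genes tested. These 75 genes were covered by 125 probes, of which 120 passed the filter on dim probes. All 75 genes were well above background on all 8 arrays, so the filter removed none of them. By the assignment of mouse mitoribosomal proteins, 48 belong to the large subunit, including Mrps18a and Mrps30, and 26 to the small subunit. Mrps36 carries a ribosomal name but is now known as a component of the 2-oxoglutarate dehydrogenase complex of the citric acid cycle, and it is counted apart.

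The arrays measured RNA of dendritic cells (DC), antigen-presenting cells grown from the bone marrow of male C57BL/6Jax mice in medium with 40 ng/mL GM-CSF for 7 days. The cells were wild type (WT) or lacked the microRNA miR-155 (KO), and cells of each genotype were studied unstimulated or after 16 h with 100 ng/mL lipopolysaccharide (LPS), a bacterial cell wall component. Each of the 4 groups, WT unstimulated, WT LPS, KO unstimulated and KO LPS, had 2 one-colour arrays. Whether the 2 replicates of a group are separate mice or cultures is not given, so the p-values measure the spread between these arrays, which may be technical. Unstimulated cells were sorted as CD86-negative and LPS cells as CD86-positive, so LPS and the sort gate cannot be told apart. The labels give neither the allele of the KO nor whether bone marrow of several mice was pooled, and the genotypes were taken from the labels.

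The mitochondrial ribosome translates the few messages encoded by mitochondrial DNA, all of which specify subunits of the respiratory chain or of ATP synthase. Its ribosomal RNAs are mitochondrial transcripts, whereas its proteins are encoded in the nucleus, made in the cytosol and imported. About the core inherited from bacteria it carries many proteins found only in mitochondria. DC activated by LPS are known to shift from respiration toward glycolysis.

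Between 50.8% and 58.3% of spots on an array were well above background, and 0 spots were saturated. The arrays lay on 2 slides. Slide 1 carried replicate 2 of WT LPS and of KO unstimulated together with both arrays of unstimulated WT, and slide 2 carried the other 4 arrays. The DC genes Itgax, H2-Aa, H2-Ab1, Cd74, Flt3 and Zbtb46 were well above background on all arrays. Values are scaled log2 signals, the log2 of the processed signal minus the 75th percentile of the array, so a difference of 1 is a 2-fold difference. Since probes differ in brightness, the signal of one gene is never set against that of another. In these bulk samples less RNA per cell and fewer cells of a type cannot be told apart.

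Which mitoribosomal transcripts differed between LPS-stimulated and unstimulated DC was asked first with both genotypes averaged, 4 arrays against 4. Of the 75 genes, 17 fell, 2 rose and 56 were not called at an adjusted p under 0.05 (limma, Benjamini-Hochberg over all genes). The 2 that rose were Mrpl13 and Mrpl53, and the largest falls, a little over 2-fold, were in Mrpl42, Mrps35, Mrpl12 and Mrps36. Over all genes tested 37.4% were called in this comparison, 19% lower and 18.4% higher, against 25.3% of the 75 genes. The share called was thus smaller than over all genes, and most of the calls were lower. The median log2 difference of the 75 genes was −0.23, and 53 of 75 lay below 0, beside a median of 0.03 and a share of 48.5% below 0 over all genes. The 2 groups of 4 arrays did not overlap for 24 genes that were lower and 8 that were higher after LPS, beside 22.6% and 21.5% of all genes.

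**Figure D1:**
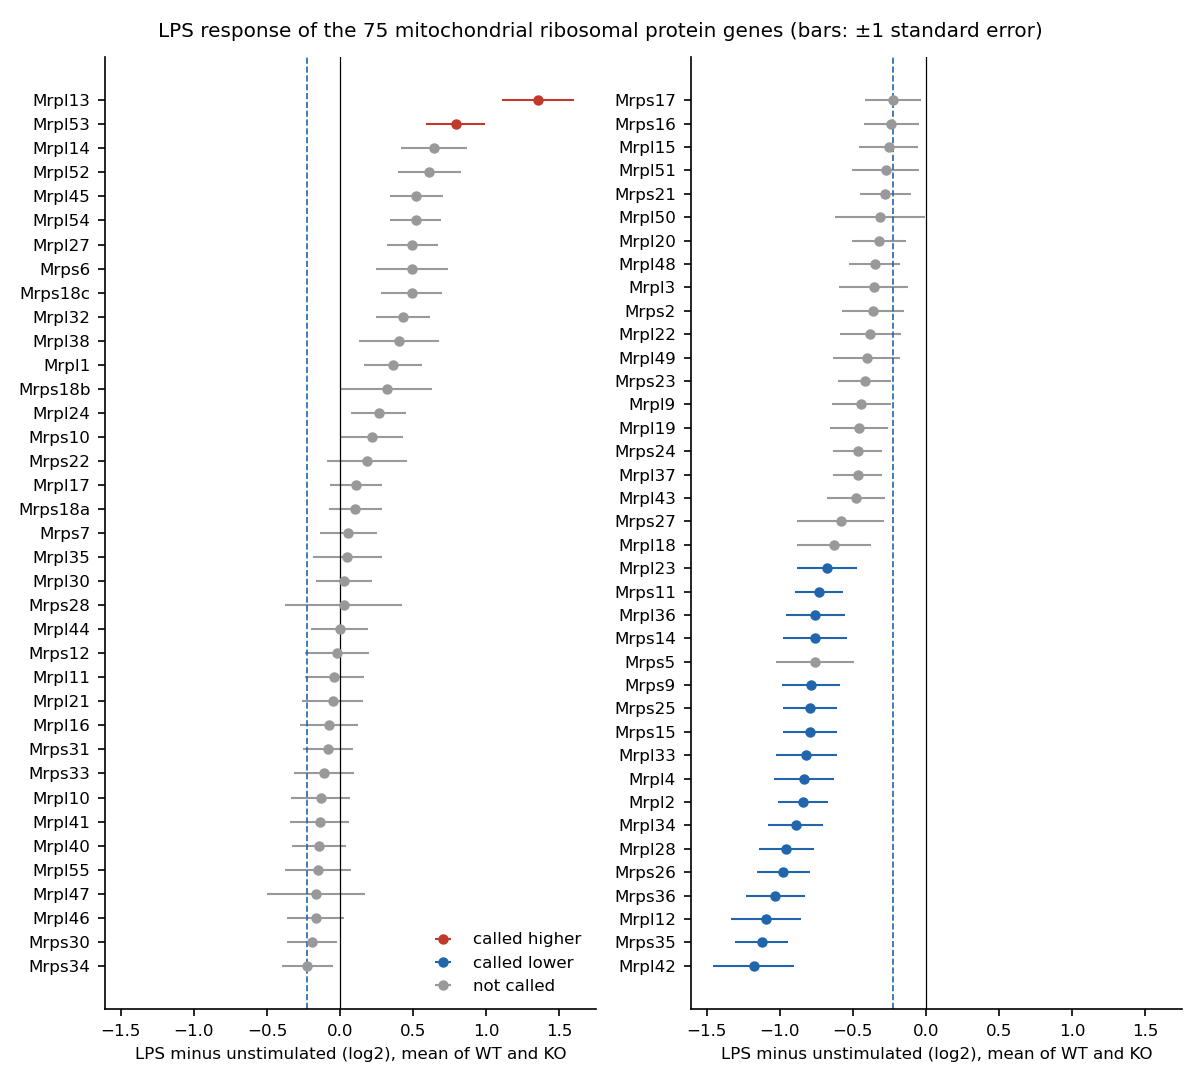
LPS minus unstimulated signal (log2, x axis) of each of the 75 genes, averaged over WT and KO, with bars of 1 standard error, n = 4 arrays on each side. The dashed line is the median of the 75 genes at −0.23. Called genes are coloured: Mrpl13 and Mrpl53 lie above 0 and the 17 lower genes between −1.18 and −0.68.

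Mrpl13, a large subunit protein shared with bacteria, was the gene that rose most. Its scaled log2 signal was 3.82 and 3.25 on the WT unstimulated arrays, 3.69 and 2.97 on the KO unstimulated arrays, 4.92 and 4.64 on the WT LPS arrays and 4.88 and 4.72 on the KO LPS arrays. All 4 LPS arrays were above all 4 unstimulated arrays, and the LPS arrays of both genotypes lay within a narrow range. Mrpl13 rose by 1.35 ± 0.25 on the log2 scale, or 2.56-fold (SE, adjusted p = 0.00562 by limma), and by 1.10 with the slide as a block (adjusted p = 0.0290). It has 1 probe on the array, at chr15:55365795-55365854 of mm9. Mrpl53, a mitochondria-specific protein near the stalk of the large subunit, had signals of 3.70, 3.57, 3.41 and 3.27 in unstimulated WT and KO and of 4.24, 4.54, 3.90 and 4.44 after LPS. These groups did not overlap either. Mrpl53 rose by 0.79 ± 0.20 (adjusted p = 0.0216), a call that was lost with the slide as a block (log2 difference 0.83, adjusted p = 0.0627). In all, Mrpl53 lost its call in 8 of the 19 alternative settings.

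Of the 48 large subunit genes, 9 fell, 2 rose and 37 were not called, with a median of −0.17, beside 19% lower and 18.4% higher over all genes. Mrpl42, a mitochondria-specific protein, had signals of 4.17 and 3.42 in unstimulated WT, 4.23 and 3.42 in unstimulated KO, 2.66 and 2.67 in WT LPS and 2.82 and 2.37 in KO LPS. The 2 unstimulated arrays of each genotype were far apart, yet the lower of them still exceeded all LPS arrays. Mrpl42 fell by 1.18 ± 0.28 (adjusted p = 0.0158). Mrpl12, the stalk protein that recruits translation factors and is also reported to bind the mitochondrial RNA polymerase, had signals of 4.90, 4.28, 4.71 and 4.06 without LPS and of 3.37, 3.55, 3.42 and 3.24 with it. Mrpl12 fell by 1.09 ± 0.24, or 2.13-fold (adjusted p = 0.0120). Mrpl12 kept its call in all 19 alternative settings, with log2 differences between −1.56 and −0.93. Mrpl42 kept it in 18, between −1.48 and −0.98, and lost it without KO LPS replicate 2.

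Mrpl28 had signals between 5.35 and 5.79 without LPS and between 4.46 and 4.87 with it, with no overlap, and fell by 0.95 ± 0.19 (adjusted p = 0.00817). Mrpl34 fell by 0.89 ± 0.19, and Mrpl33, another protein with a bacterial counterpart, fell by 0.82 ± 0.21. Mrpl2, which lies close to the peptidyl transferase centre where peptide bonds form, had signals of 2.68, 2.71, 2.41 and 2.36 without LPS and 1.66, 1.92, 1.55 and 1.67 with it. All LPS values were below all unstimulated values, and Mrpl2 fell by 0.84 ± 0.17 (adjusted p = 0.00863). Mrpl4, which reaches from the surface of the large subunit toward its exit tunnel, fell by 0.83 ± 0.20 (adjusted p = 0.0187). The remaining 2 called large subunit genes were Mrpl36 and Mrpl23, at −0.76 and −0.68. With the slide as a block, Mrpl42, Mrpl12, Mrpl28 and Mrpl2 were still called, and Mrpl34, Mrpl33, Mrpl4, Mrpl36 and Mrpl23 were not. Over the 19 alternative settings, Mrpl23 lost its call in 11, Mrpl36 in 8, and Mrpl4 and Mrpl33 in 7 each. Mrpl34 lost it in 3, and Mrpl28 and Mrpl2 in 2 each.

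Of the 26 small subunit genes, 7 fell, 0 rose and 19 were not called, with a median of −0.26, beside 19% lower and 18.4% higher over all genes. Mrps35, a mitochondria-specific protein of the small subunit, had the smallest adjusted p of all 75 genes. Its signals were 1.88 and 1.95 in unstimulated WT, 1.79 and 1.70 in unstimulated KO, 0.52 and 0.84 in WT LPS and 0.59 and 0.88 in KO LPS. The unstimulated arrays lay close together, and all 4 LPS arrays were well below them. Mrps35 fell by 1.12 ± 0.18, or 2.18-fold (adjusted p = 0.00350). Mrps26, also mitochondria-specific, had signals of 4.02, 3.87, 3.85 and 3.70 without LPS and of 2.72, 3.12, 2.85 and 2.85 with it, again without overlap, and fell by 0.97 ± 0.18 (adjusted p = 0.00637). Mrps25 fell by 0.79 ± 0.18 and Mrps15 by 0.79 ± 0.19. The other 3 called small subunit genes, Mrps9, Mrps14 and Mrps11, lay between −0.79 and −0.73, and all 3 belong to the conserved core. Mrps36, counted outside the ribosome, had signals between 3.10 and 3.65 without LPS and between 2.30 and 2.41 with it, and fell by 1.03 ± 0.20, or 2.04-fold (adjusted p = 0.00770). With the slide as a block, Mrps35, Mrps26, Mrps25 and Mrps36 were still called, and Mrps15, Mrps9, Mrps14 and Mrps11 were not. Over the 19 alternative settings, Mrps14 lost its call in 12, Mrps9 in 8, and Mrps15 and Mrps11 in 6 each. Mrps25 lost it in 4, Mrps36 in 2, and Mrps35 and Mrps26 in 0.

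**Figure D2:**
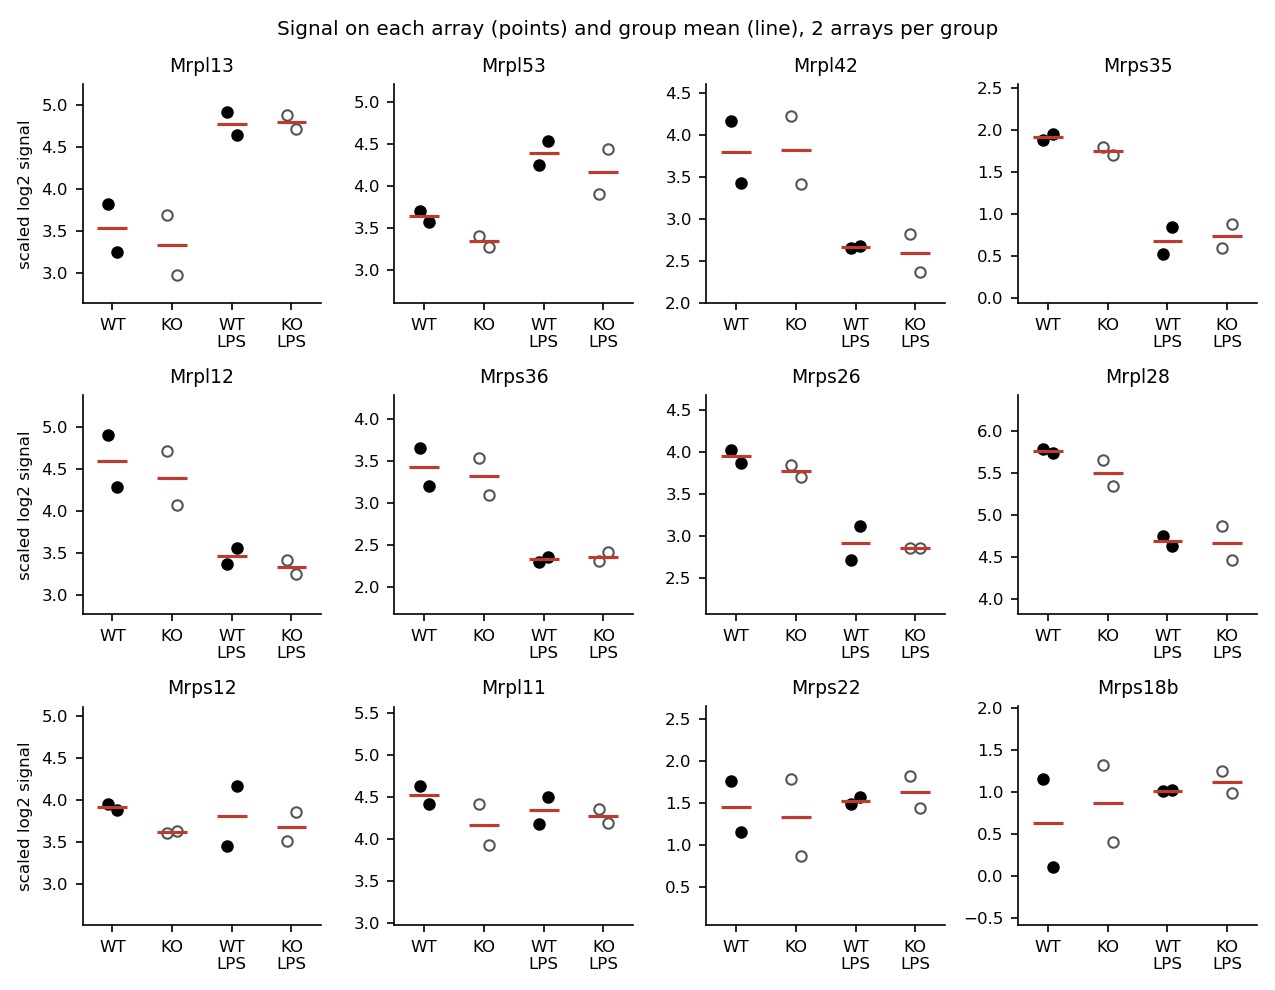
Scaled log2 signal (y axis, each panel spanning the same range) of 12 genes on each array, as points, with the group mean as a line. WT is filled, KO is open, and each group has 2 arrays. LPS arrays are above unstimulated arrays for Mrpl13 and Mrpl53 and below them for Mrpl42, Mrps35, Mrpl12, Mrps36, Mrps26 and Mrpl28, and the groups overlap for Mrps12, Mrpl11, Mrps22 and Mrps18b.

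Probes whose coordinates span more than their own length were taken to cross a splice junction, as inferred from the span alone, since exon positions were not used here. Such probes are shown for 3 genes that fell, because the falls of these genes were measured on exactly these 60 bases. All lie on the plus strand of mm9 and are printed in lower case, 5′ to 3′, as the scanner files give them. The probes cover chr6:147009999-147019119 for Mrps35, chr17:46785301-46785453 for Mrpl2 and chr9:20812172-20812313 for Mrpl4.
Mrps35: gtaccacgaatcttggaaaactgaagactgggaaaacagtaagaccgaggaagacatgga
Mrpl2: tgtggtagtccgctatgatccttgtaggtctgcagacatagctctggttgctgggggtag
Mrpl4: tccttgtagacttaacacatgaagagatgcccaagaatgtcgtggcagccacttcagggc

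The genes not called included several central to decoding and assembly. Mrps12, the small subunit protein at the decoding site, had signals of 3.96, 3.89, 3.61 and 3.63 without LPS and of 3.46, 4.17, 3.51 and 3.86 with it. These ranges overlap, and the log2 difference was −0.02 ± 0.22 (adjusted p = 0.948). Mrpl11, at the base of the stalk, was at −0.04 ± 0.20, Mrps7, which binds the head of the small subunit RNA, at 0.06 ± 0.20, and Mrpl44 at −0.0036 ± 0.20. Mrps16 was at −0.24 ± 0.19, Mrpl3 at −0.36 ± 0.24, Mrps30 at −0.20 ± 0.17 and Mrps22 at 0.18 ± 0.27. Mrpl32, whose maturation by a mitochondrial protease is a step of large subunit assembly, was at 0.43 ± 0.19 with all LPS arrays above all unstimulated ones, and was not called (adjusted p = 0.115). For the paralogues of bacterial S18, which occupy different places in the ribosome, the differences were 0.10 ± 0.18 for Mrps18a, 0.32 ± 0.31 for Mrps18b and 0.49 ± 0.21 for Mrps18c, none of them called. Directly outside the threshold was Mrpl54, a protein counted with the stalk, at 0.52 ± 0.17 with all LPS arrays above all unstimulated ones (adjusted p = 0.0540). Mrpl45 (0.52), Mrpl52 (0.61), Mrps5 (−0.76) and Mrpl14 (0.64) followed, with adjusted p-values from 0.0620 to 0.0636 (limma).

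Neighbours in the structure of the large subunit had differences of both signs. Of 6 proteins of the stalk, Mrpl12 fell and Mrpl53 rose, and the group's median was 0.16. Of 5 proteins counted with the peptidyl transferase centre, Mrpl2 and Mrpl4 fell and Mrpl27 was at 0.49, with a median of −0.36. Mrpl4 also reaches toward the exit tunnel but was counted only here. Of 7 other proteins, counted with the exit tunnel, through which the new chain leaves, 1 fell, Mrpl23, and the median was −0.0036. None of the 5 proteins of the central protuberance was called (median −0.17). Of 47 genes with a bacterial homologue, 12 fell and 1 rose (median −0.24), and of 27 without one, 4 fell and 1 rose (median −0.20). Over all genes 19% were called lower and 18.4% higher, and differences between these groups of genes were not tested.

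The slide and markers of other cells moved with parts of this comparison. With the slide as a block, 9 of the 75 genes were called, 8 lower and 1 higher, and all 9 were among the 19 called without it. The median was then −0.24, and 26.4% of all genes were called. Leaving out 1 array at a time left 9 to 18 genes called, the fewest without KO LPS replicate 2, 10 without WT LPS replicate 1 and 12 without KO LPS replicate 1. The share of all genes called fell too, to between 28.1% and 33.4%, from 37.4% with all 8 arrays. Of 15 markers of proliferating cells, 12 fell with LPS and 0 rose, and the log2 of their summed scaled signal was between 6.83 and 7.58 in the unstimulated groups and between 5.75 and 5.92 in the LPS groups. Aurkb and Birc5, both needed for cell division, fell by 3.85 ± 0.25 and by 4.56 ± 0.42. Of 4 tested stromal markers 3 rose, with summed levels between −3.40 and −2.44 without LPS and between 1.13 and 3.62 with it, and Dcn and Lum were not well above background on any unstimulated array. Of 11 macrophage markers 4 rose and 5 fell, with sums between 7.86 and 8.60 without LPS and between 9.95 and 10.47 with it. Of 5 tested erythroid markers 2 rose (sums −1.32 to −0.21 and 4.44 to 5.81), and of 7 mast cell and basophil markers 2 rose and 4 fell (sums −0.90 to 1.48 and 2.61 to 6.85). Of 7 tested neutrophil markers 1 rose and 2 fell (sums 2.44 to 3.54 and 3.37 to 3.48), of 3 B cell markers 1 rose and 1 fell (sums −0.47 to 2.31 and −3.19 to −1.72), and of 4 T and NK cell markers 1 rose and 2 fell (sums −2.23 to −1.35 and −2.23 to −1.70). Of 12 DC markers 2 rose and 1 fell (sums 9.96 to 10.40 and 10.08 to 10.56). The defining markers Pax5 and Cd3d did not pass the filter on dim probes. The part of these differences in the mitoribosomal values was not tested.

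Taken within each genotype, fewer genes passed the test. In WT, 7 of 75 fell (Mrps35, Mrpl28, Mrps26, Mrps36, Mrps25, Mrpl34 and Mrpl2) and 1 rose (Mrpl13), beside 20.2% of all genes called, 10.7% lower and 9.48% higher. Mrps35 fell by 1.24 ± 0.26 in WT (adjusted p = 0.0177), Mrpl28 fell by 1.07 ± 0.27, Mrps36 fell by 1.10 ± 0.29, Mrps26 fell by 1.03 ± 0.26 and Mrpl13 rose by 1.24 ± 0.35 (adjusted p = 0.0477). Mrpl34 fell by 1.01 ± 0.27, Mrps25 fell by 0.98 ± 0.26 and Mrpl2 fell by 0.91 ± 0.24. In KO, Mrps35 fell by 1.01 ± 0.26 (adjusted p = 0.0342), Mrps26 fell by 0.92 ± 0.26 (adjusted p = 0.0468) and Mrpl13 rose by 1.47 ± 0.35 (adjusted p = 0.0267), beside 20.8% of all genes called, 10.5% lower and 10.3% higher. These 3 genes were also called in WT. The counts rested on single arrays: in WT 0 genes were called without any one of the 4 WT arrays, 1 without either KO LPS array and 6 without either KO unstimulated array. The share of all genes called in WT fell too, to between 9.36% and 13.8% without a WT array and to between 17.8% and 18.6% without a KO array. In KO 0 were called without KO unstimulated replicate 2 or either KO LPS array, 1 without KO unstimulated replicate 1 or either WT LPS array, and 2 without either WT unstimulated array (limma), beside shares of all genes from 9.25% to 14.4% without a KO array and from 18.3% to 20.2% without a WT array. The medians of the 75 genes were −0.33 in WT and −0.16 in KO. Mrpl12, a gene called only in the average, was at −1.13 ± 0.34 in WT and −1.06 ± 0.34 in KO (adjusted p = 0.0581 and 0.0705). With the slide as a block, 0 genes were called in either genotype, where the medians were −0.32 and −0.14. Within slide 1 the WT median was −0.22 and within slide 2 the KO median was −0.25, with 0 genes called in each (limma), beside 9.96% and 2.89% of all genes. Each of these 2 comparisons has 1 array on one side, WT LPS replicate 2 and KO unstimulated replicate 1, assumed to vary like the others. With the slide as a block 14.1% and 15.3% of all genes were still called in WT and KO. With the block Mrps35 was at −1.18 in WT and −0.95 in KO, and Mrpl13 at 0.99 and 1.22, while values near 0 turned sign for Mrps12, Mrps7 and Mrps22 in WT and for Mrps30 in KO.

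**Figure D3:**
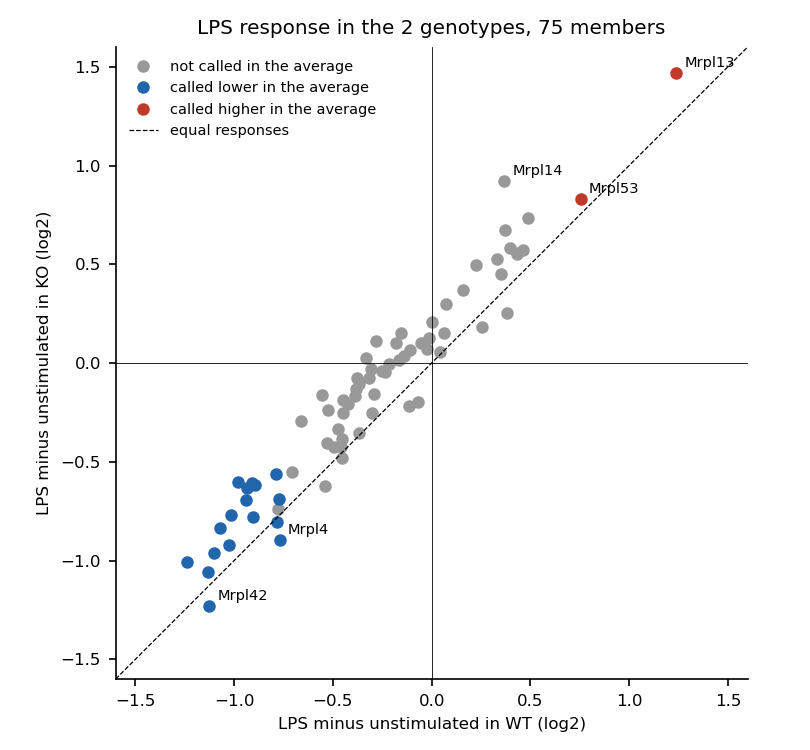
LPS minus unstimulated signal (log2) in KO (y axis) against WT (x axis) for the 75 genes, each point 1 gene, with the line of equal responses dashed. Colours mark the calls of the averaged comparison. Mrpl13 lies at 1.24 and 1.47, Mrpl42 at −1.13 and −1.23, and Mrpl14, at 0.37 and 0.92, is the point farthest from the line.

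WT and KO share no arrays but share slides, and deviations of their same-numbered arrays correlated at 0.498 unstimulated and 0.692 after LPS. Their LPS responses are thus not shown to be independent of each other, and were alike gene by gene. Their signs agreed for 65 of 75 genes, and Pearson's r across these genes was 0.965, as a description, beside 0.944 across all genes. The LPS response of KO lay nearer to 0 than that of WT for 48 genes. For this count and that of agreeing signs the share over all genes is not given, so they only describe these genes. The test of the difference between the responses called 0 of the 75 genes (limma), beside 0.0455% of all genes, and 0 had an unadjusted p under 0.05. The smallest unadjusted p-values were those of Mrpl14 (0.56 ± 0.45), Mrps31 (0.39 ± 0.34), Mrps25 (0.38 ± 0.37), Mrpl43 (0.37 ± 0.39) and Mrpl3 (0.39 ± 0.47), from 0.262 to 0.435, and all adjusted p-values were 1 (limma). Differences were above 0 for 66 genes, with a median of 0.19, beside 43.4% of all genes below 0. This median turned to −0.55 with normexp background correction and lay between 0.058 and 0.31 when 1 array was left out. The median SE of this difference was 0.40, so differences of that size between the genotypes could not be detected with these arrays.

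Whether loss of miR-155 altered these transcripts was compared within each state. The 2 mature strands of miR-155 are printed because their loss is what the labels say sets the KO apart. Capitals mark the seed, bases 2 to 8, and both are RefSeq entries of GRCm38.p6.
mmu-miR-155-5p: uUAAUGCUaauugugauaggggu
mmu-miR-155-3p: cUCCUACCuguuagcauuaac

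In unstimulated cells 0 of 75 genes were called between KO and WT (limma), beside 0.24% of all genes, and 0 had an unadjusted p under 0.05. The differences lay below 0 in 70 of 75 genes, with a median of −0.24, beside 55.8% of all genes and a median of −0.04. Mrpl14 had signals of 5.01 and 5.62 in WT and 4.69 and 4.74 in KO, and was at −0.60 ± 0.32 (unadjusted p = 0.105 by limma). Mrpl20 was at −0.45 ± 0.26, Mrpl46 at −0.41 ± 0.28, Mrpl43 at −0.41 ± 0.28 and Mrps34 at −0.36 ± 0.25. The fixed genes Mrpl11, Mrps12 and Mrpl44 were at −0.35, −0.30 and −0.26, and Mrps18b, at 0.23 ± 0.44, was the highest of the 75. Both KO arrays were below both WT arrays for 33 genes and above them for 0, beside 12.8% and 8.08% of all genes. The median was −0.25 with the slide as a block and −0.35 within slide 1, where 1 KO array stood against 2 WT arrays, and it was −0.11 without KO unstimulated replicate 2.

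After LPS the corresponding median was −0.04, with 50 of 75 genes below 0, beside 50.7% of all genes. Again 0 genes were called (limma, 0.026% of all genes) and 0 had an unadjusted p under 0.05. Mrps23 was at −0.25 ± 0.26, Mrps34 at −0.23 ± 0.25, Mrpl27 at −0.23 ± 0.25, Mrps15 at −0.22 ± 0.26 and Mrpl10 at −0.24 ± 0.29. Both KO arrays were below both WT arrays for 13 genes and above them for 2, Mrpl18 and Mrpl50, beside 9.67% and 11.5% of all genes. The sign of this median depended on the arrays: it was 0.06 within slide 2, which is also the comparison without WT LPS replicate 2. With both states averaged, 68 of 75 genes lay below 0 with a median of −0.14 (53.8% of all genes, median −0.02), and 0 were called (limma, 0.143% of all genes). Mrpl20 was at −0.32 ± 0.19, Mrps34 at −0.29 ± 0.18, Mrpl27 at −0.29 ± 0.18, Mrps23 at −0.29 ± 0.18 and Mrps33 at −0.29 ± 0.20. All 4 KO arrays lay below or above all 4 WT arrays for 0 of the 75 genes, beside 0.313% and 0.345% of all genes, and in each marker list of other cell types 0 genes were called. The genotype comparisons and the LPS responses share arrays, so their values are not separate evidence.

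Other ribosomal and mitochondrial genes give the frame for these values. Over all genes 19% were called lower and 18.4% higher in the averaged LPS response. Of 82 cytosolic ribosomal protein genes, 20 fell with LPS and 0 rose, with a median of −0.45. Of 76 subunits of the respiratory chain and ATP synthase, the complexes that contain the products of the mitochondrial ribosome, 36 fell and 1 rose, with a median of −0.58. Both medians were lower than the −0.23 of the mitoribosomal genes. In unstimulated cells the KO minus WT median was −0.22 for the cytosolic ribosomal proteins, with 79 of 82 genes below 0, and −0.19 for the respiratory chain, with 71 of 76 below 0. Array by array, the median scaled log2 signal of the cytosolic ribosomal proteins was 7.35 and 7.91 in unstimulated WT and 7.35 and 7.39 in unstimulated KO, so WT replicate 1 lay at the level of the KO arrays and WT replicate 2 above them. For the respiratory chain it was 5.75 and 5.52 in WT and 5.66 and 5.30 in KO, which overlap. For the mitoribosomal genes it was 3.15 and 3.10 in WT and 2.96 and 2.88 in KO, with both KO arrays lower. By median the genotypes overlapped within each subunit. The large subunit was at 3.51 and 3.26 in WT and 3.28 and 3.02 in KO. The small subunit was at 2.83 and 2.54 in WT and 2.61 and 2.51 in KO. By the log2 of the summed scaled signal, both KO arrays were lower for the respiratory chain too (12.36 and 12.33 in WT, 12.29 and 11.99 in KO). By this sum they were also lower for the mitoribosomal genes (10.08 and 10.05 in WT, 9.93 and 9.63 in KO). The same held within the large subunit (9.66 and 9.63, 9.51 and 9.20) and the small subunit (8.02 and 8.02, 7.86 and 7.64). For the cytosolic ribosomal proteins the sums overlapped (13.80 and 14.31 in WT, 13.79 and 13.88 in KO).

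**Figure D4:**
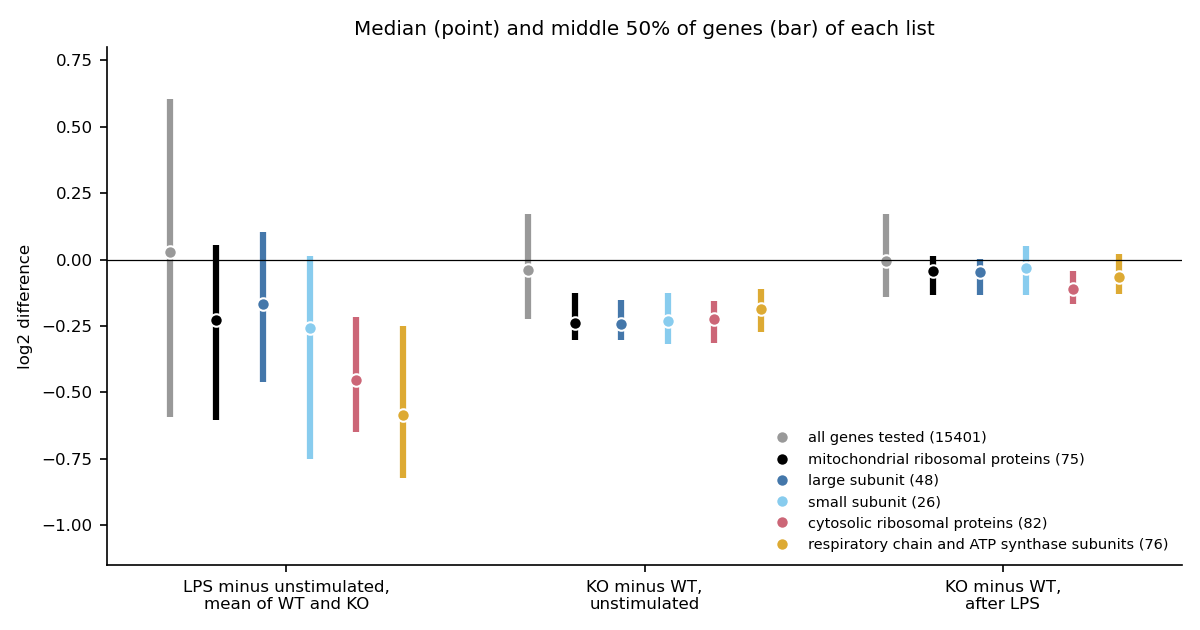
Median (point) and middle 50% of genes (bar) of the log2 difference (y axis) for all genes tested, the 75 mitoribosomal genes, their subunits, cytosolic ribosomal proteins and respiratory chain subunits, in 3 comparisons. After LPS the mitoribosomal median of −0.23 lies between that of all genes (0.03) and that of the respiratory chain (−0.58), and in unstimulated cells the medians of KO minus WT of the 3 gene classes lie between −0.24 and −0.19.

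Factors that act with the mitochondrial ribosome were called in part, and the counts are to be read beside the 37.4% of all genes called in this comparison. Of 7 mitoribosomal proteins with other names, such as Dap3, 0 were called (limma, 1 with an unadjusted p under 0.05), and their median was −0.11. Of 19 tested translation factors, Qrsl1 and Gatc fell, by 1.32 ± 0.18 and by 1.20 ± 0.20. These encode 2 subunits of the amidotransferase that completes mitochondrial glutaminyl-tRNA. Of 26 tested assembly and rRNA modification factors, 6 fell and 1 rose. Rbfa, which helps mature the small subunit RNA, fell by 1.42 ± 0.28, Rpusd3 fell by 1.30 ± 0.22 and Mpv17l2 fell by 1.08 ± 0.19, while Nsun4, an rRNA methyltransferase, rose by 1.29 ± 0.41. Of 14 tested genes of mitochondrial transcription and RNA maintenance, 4 fell and 1 rose. Polg2, the accessory subunit of the mitochondrial DNA polymerase, fell by 2.29 ± 0.39, Peo1, the DNA helicase Twinkle, fell by 1.29 ± 0.22, and Pnpt1, a mitochondrial exoribonuclease, rose by 1.09 ± 0.23. Of 10 tested regulators of mitochondrial biogenesis, Myc fell by 3.88 ± 0.56 and the coactivator Ppargc1b fell by 2.94 ± 0.47. Gabpa, the DNA-binding subunit of the ETS factor GABP, rose by 0.87 ± 0.27, and Esrra, an orphan nuclear receptor, rose by 0.70 ± 0.17. Nrf1 (−0.37 ± 0.22) and Yy1 (0.06 ± 0.17) were not called.

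For 31 of the 75 genes several probes were tested, which allowed the LPS response to be read more than once on the same arrays. Probes of 0 genes were called in opposite directions, 7 genes had probes of opposite sign, and the median range between probes of a gene was 0.20. Both probes of Mrpl42 were called, at −1.18 and −1.20, as were both of Mrps36 (−1.03 and −0.83), Mrps26 (−0.97 and −0.91) and Mrpl28 (−0.95 and −1.23). Mrps15 and Mrps25 each had a second probe that was not called, at −0.40 and −0.32. The 3 probes of Mrps9 gave −0.79, −0.58 and −0.01, the first 2 called. Mrpl18, a protein of the central protuberance, was not called by its brightest probe (−0.63, adjusted p = 0.0947 in the fit of all probes), whereas its 2 other probes were, at −0.75 and −0.78. Mrps5 had 1 called probe of 4, at −1.86, and that probe was well above background on only 3 of 8 arrays. Counted by probe, 25 of 120 fell and 2 rose, beside 19% lower and 18.4% higher over all genes. Those shares are counted by gene, and the share over all probes is not given here.

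**Figure D5:**
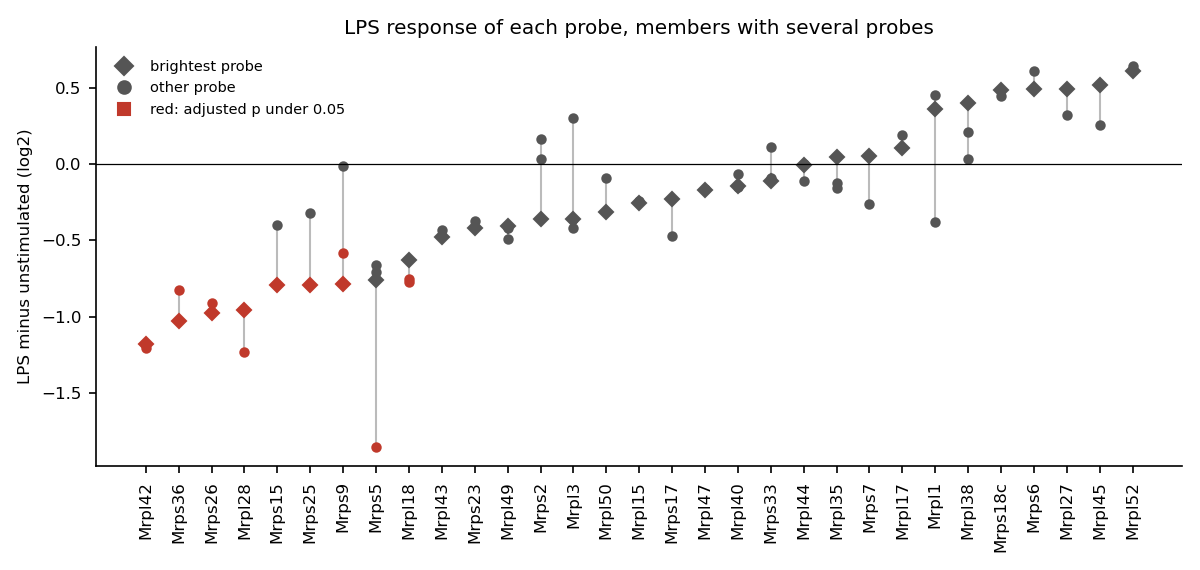
LPS minus unstimulated signal (log2, y axis, mean of WT and KO) of each probe of the 31 genes (x axis) with several tested probes. Diamonds are the brightest probe of a gene, circles the others, and red marks an adjusted p under 0.05. Most probes of a gene lie close together (median range 0.20), and Mrps5, Mrpl1, Mrps9 and Mrpl3 have the widest ranges.

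Promoters of these genes were read for 4 motifs of factors known to act on nuclear genes for mitochondrial proteins. RefSeq promoter entries, 250 bases before to 50 after the start site on GRCm38.p6, were matched by symbol for 66 of the 75 genes, 72 entries in all. Exact matches were counted on both strands, and where a motif resembles its own complement, matches on opposite strands can share bases. The ETS core CCGGAAG was in 33.3% of these promoters and in 8.86% of all 32851 promoters. The YY1 motif AAGATGGCG was in 11.1% and 1.4%, the NRF1 motif GCGCATGCG in 8.33% and 1.75%, and the E-box CACGTG in 9.72% and 7.15%. The E-box share counts 3 overlapping entries of Mrpl2 that hold the same match, and by gene 5 of 66 had an E-box. Among the genes that fell with LPS, 3 of 15 had an ETS core, 3 had the YY1 motif, 2 had an E-box and 0 had the NRF1 motif. Among the 50 genes not called, 20 had an ETS core, 5 the YY1 motif, 3 an E-box and 6 the NRF1 motif. Of the 2 genes that rose, only Mrpl53 had an entry. A match describes letters in the window and shows no binding.

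The 150 bases before the start site are shown for 1 gene that rose, for 4 that fell and for Mrpl32, to set genes with different responses beside one another. Capitals mark motif matches. The windows are chr6:83108958-83109107 on the plus strand for Mrpl53, chr2:130563607-130563756 on the plus strand for Mrps26, chr8:71464776-71464925 on the plus strand for Mrpl34, chr13:73330859-73331008 on the plus strand for Mrpl36, chr7:78782981-78783130 on the plus strand for Mrps11 and chr13:14613038-14613187 on the minus strand for Mrpl32.
Mrpl53: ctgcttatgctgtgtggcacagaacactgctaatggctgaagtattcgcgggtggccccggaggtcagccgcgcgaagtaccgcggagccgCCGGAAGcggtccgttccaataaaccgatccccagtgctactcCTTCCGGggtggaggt
Mrps26: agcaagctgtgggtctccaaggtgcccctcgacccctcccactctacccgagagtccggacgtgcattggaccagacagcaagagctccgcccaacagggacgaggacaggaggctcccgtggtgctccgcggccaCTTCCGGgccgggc
Mrpl34: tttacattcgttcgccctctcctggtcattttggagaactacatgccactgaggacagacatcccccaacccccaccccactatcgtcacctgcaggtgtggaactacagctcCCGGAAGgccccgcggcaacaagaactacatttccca
Mrpl36: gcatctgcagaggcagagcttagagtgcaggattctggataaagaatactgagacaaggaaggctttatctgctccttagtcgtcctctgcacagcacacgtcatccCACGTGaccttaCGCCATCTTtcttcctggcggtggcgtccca
Mrps11: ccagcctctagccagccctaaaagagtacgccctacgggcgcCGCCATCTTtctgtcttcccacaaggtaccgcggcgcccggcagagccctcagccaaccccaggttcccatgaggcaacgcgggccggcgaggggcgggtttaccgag
Mrpl32: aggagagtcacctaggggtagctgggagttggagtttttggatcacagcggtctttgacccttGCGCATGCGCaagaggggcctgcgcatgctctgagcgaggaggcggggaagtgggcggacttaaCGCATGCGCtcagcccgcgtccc

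The ETS core was present both in Mrpl53, which rose by 0.79, and in Mrps26 and Mrpl34, which fell by 0.97 and by 0.89. Counted from the start site, the matches begin at −59 and −16 in Mrpl53, on opposite strands, at −14 in Mrps26 and at −37 in Mrpl34. Mrpl36 carries an E-box and the YY1 motif, and Mrps11 the YY1 motif alone. Mrpl32, which was not called, holds 3 matches to the NRF1 motif, 2 of them sharing bases. The start site of Mrps11 lies 42 bases from that of Mrpl46, which is transcribed the other way, and among the 66 genes with a promoter entry no other pair had start sites within 1000 bases. Mrps11 fell by 0.73 ± 0.16 (adjusted p = 0.0133), while Mrpl46 was at −0.17 and was not called, and this difference between the neighbours was not tested.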

How the data were processed

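RNA of 8 samples was hybridised to one-colour Agilent arrays. Per the file headers, scans were read by Agilent Feature Extraction 10.5.1.1. The authors deposited for each spot its intensity on a linear scale, as a processed, background-subtracted signal and as mean and local background signals. The deposited spot flags, an other unit of 0 or 1, mark which spots exceed background and which are outliers. A deposited log2 value per probe, in the series table, was found to be the log2 processed signal plus a constant for each array (75th percentiles 9.19). The build in the headers is mm9.

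Outlying spots (120 to 174 per array) were left out. The log2 processed signal minus each array's 75th percentile was used. Probes were kept if marked as well above background on both arrays of any group (23739 of 41174), and the brightest probe stood for a gene. Accessions of all 75 genes matched the RefSeq list. One mean per group was fitted over all 8 arrays with limma 3.58.1 (R 4.3.3, data.table version 1.17.8), with 4 residual degrees of freedom, two-sided p-values and Benjamini-Hochberg adjustment over all genes. Errors are limma standard errors with n = 2 arrays per group. The script was tested on simulated data. The number of arrays limits the precision.

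The genes, lists and rule for naming were chosen with earlier results of these data known, so counts over lists are descriptions without a test. Named are up to 12 called genes per direction and comparison, 5 where none was called, 14 fixed genes, and up to 4 called genes of other lists; other genes were named after their values were seen. Sequences were read from the scanner files and RefSeq tables. Alternatives covered background correction, scaling, the filter, the probe rule, slide, replicate number and each array left out.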

Additional observations from a re-analysis of the deposited data

How the results depend on the processing

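No gene called in the averaged LPS response changed sign under any alternative run, but several medians did, as given here. With normexp background correction, 4 genes were called in the averaged LPS response (median −0.50), 0 in WT and 0 in KO (median −0.70). The 4 genes were Mrpl42, Mrps35, Mrpl12 and Mrps26. Calls over all genes dropped as well, to 13.2%, 4.46% and 6.08%, from 37.4%, 20.2% and 20.8% in the main fit. The KO minus WT medians were then −0.70 after LPS and −0.44 averaged, and that of the difference between responses was −0.55. On KO LPS replicate 2, where 13 spots lay below −200 after subtraction of the local background, this correction fitted a background of −1550 intensity units, against −32.2 to 1.04 on the other arrays. Fitting by maximum likelihood, chosen after seeing the data, gave 4, 0 and 0 called, beside 13.1%, 4.44% and 6.05% of all genes. The medians listed above for normexp were then −0.50, −0.70, −0.71, −0.44 and −0.55. Leaving out the spots below −200, also chosen after seeing the data, gave 25 called in the average and 13 in KO, beside 36% and 22.1% of all genes. The median difference between responses was then 0.088. Quantile normalization gave 10 called in KO (21.2% of all genes) and a KO minus WT median of −0.12 in unstimulated cells. Median scaling moved the median of all genes to −0.12 and those of these genes to −0.37 averaged, −0.44 in WT and −0.34 in KO. Without the filter, 1 gene was called in WT and 1 in KO, beside 9.07% and 9.67% of all genes. With the slide as a block, 9, 0 and 0 were called in the average, WT and KO, beside 26.4%, 14.1% and 15.3% of all genes. Within slide 1, 0 were called in WT (median −0.22) and the unstimulated KO minus WT median was −0.35, and within slide 2, 0 were called in KO and the KO minus WT median after LPS was 0.06. Apart from the spots left out, the cause of these changes was not tested.

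With the replicate number as a block, 24 genes were called in the average, 13 in WT and 11 in KO. Calls over all genes rose as well, to 44.6%, 27% and 27.2%, from 37.4%, 20.2% and 20.8% without the block. Deviations of same-numbered arrays correlated between 0.013 and 0.692, most between WT LPS and KO LPS and next between unstimulated WT and KO (0.498). The labels say nothing of pairing, so whether same-numbered arrays share a preparation is not known and was not tested. Leaving out 1 array at a time gave 9 to 18 called in the average (median −0.33 to −0.15), 0 to 6 in WT (−0.44 to −0.22) and 0 to 2 in KO (−0.25 to 0.017). The KO minus WT medians ranged from −0.35 to −0.11 in unstimulated cells, from −0.16 to 0.06 after LPS and from −0.21 to −0.09 averaged, and that of the difference between responses from 0.058 to 0.31, with 0 called in each (limma).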
